A study of Mus musculus with 4 samples.

Results

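The 10 collagen genes described here were Col1a1, Col1a2, Col3a1, Col4a1, Col4a2, Col5a1, Col5a2, Col6a1, Col6a2 and Col12a1, chosen by symbol as fibrillar, basement membrane and related matrix collagens. All 10 were found among the 33565 listed genes, where 44 genes carried a collagen chain symbol. RNA was measured in single cells of 3 mouse lines with CapSeq, in which cells enclosed in hydrogel capsules receive their barcode by splitting and pooling. N2a, a mouse neuroblastoma line grown with 10% serum, filled columns 1 to 4 of the first barcode (BC1) plate. NIH/3T3, a mouse embryonic fibroblast line grown with 10% serum, filled columns 5 to 8. Mouse embryonic stem cells (mESCs) of the E14TG2a line filled columns 9 to 12 and had been kept on gelatin with 15% serum, leukemia inhibitory factor, 3 µM CHIR99021 and 1 µM PD0325901. The labels name no treatment and no genetic change in any line. Medium and substrate differed between mESCs and the other lines, so line and culture condition cannot be told apart.

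Collagens are secreted proteins of the extracellular matrix in which α chains wind into a helical trimer. Fibrillar collagens of types I, III and V form the cross-striated fibrils of connective tissue and are a hallmark product of fibroblasts, type IV collagen forms the sheet-like network of basement membranes, and type VI collagen forms beaded microfibrils beside the fibrils. Chains are hydroxylated and folded in the endoplasmic reticulum, trimmed after secretion and then cross-linked by lysyl oxidases.

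The 3 lines shared 1 library, with 1 sample per line and no replicates, so lines were not tested against each other. Intervals are 95% exact Poisson intervals for summed unique molecular identifiers (UMIs), exact binomial intervals for shares of cells, and exact binomial intervals for ratios, and all of them cover counting error only. Barcodes under 1000 UMIs or above 20% mitochondrial UMIs were removed, which left 2323 N2a, 2037 NIH/3T3 and 2137 mESC cells and no barcode shared between lines (0 barcodes). Their median depth was 4863 UMIs for NIH/3T3, 4803 for mESCs and 6185 for N2a. Levels are counts per 1000000 UMIs (CPM) after summing the cells of a line, that is, out of 11697865 UMIs for NIH/3T3, 12322098 for mESCs and 17955221 for N2a. The line labels were checked against 6 marker genes each: all 6 fibroblast markers were highest in NIH/3T3, all 6 stem cell markers in mESCs, and 5 of 6 sympathoadrenal markers in N2a. The summed fibroblast markers reached 2820 CPM in NIH/3T3, 449.3 CPM in N2a and 93.6 CPM in mESCs.

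Promoter letters are shown first for 3 of the genes, because Col1a2 held the most UMIs of the 10 and because Col4a1 and Col4a2 start back to back and had almost the same level in every line. The windows run from 250 bases before to 50 bases after the RefSeq gene start, 5′ to 3′ on the strand of the gene, and were taken from a RefSeq table built on GRCm38.p6 and placed on GRCm39 by exact match. Capitals mark CCAAT and GGGCGG, 2 common promoter motifs, found on either strand, so that ATTGG and CCGCCC are the same motifs on the opposite strand. Col1a2 lies at chr6:4505368-4505667 on the plus strand, Col4a1 at chr8:11362777-11363076 on the minus strand and Col4a2 at chr8:11362555-11362854 on the plus strand.
Col1a2: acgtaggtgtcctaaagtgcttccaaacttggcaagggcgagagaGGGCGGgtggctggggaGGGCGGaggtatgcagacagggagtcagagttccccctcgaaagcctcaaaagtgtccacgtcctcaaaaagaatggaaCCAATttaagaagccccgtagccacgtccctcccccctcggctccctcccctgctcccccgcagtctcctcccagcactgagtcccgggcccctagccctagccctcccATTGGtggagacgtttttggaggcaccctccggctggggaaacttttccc
Col4a1: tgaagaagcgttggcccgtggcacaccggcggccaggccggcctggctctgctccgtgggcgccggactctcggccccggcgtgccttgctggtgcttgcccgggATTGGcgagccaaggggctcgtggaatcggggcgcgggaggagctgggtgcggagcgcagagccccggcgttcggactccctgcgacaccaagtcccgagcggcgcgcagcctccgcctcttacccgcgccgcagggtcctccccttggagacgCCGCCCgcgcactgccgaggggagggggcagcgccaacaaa
Col4a2: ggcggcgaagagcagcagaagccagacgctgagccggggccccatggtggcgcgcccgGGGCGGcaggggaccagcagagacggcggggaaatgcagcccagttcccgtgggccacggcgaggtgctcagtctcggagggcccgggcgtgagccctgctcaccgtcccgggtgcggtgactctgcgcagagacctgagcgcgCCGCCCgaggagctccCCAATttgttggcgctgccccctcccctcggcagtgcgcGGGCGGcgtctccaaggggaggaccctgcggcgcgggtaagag
The Col4a1 and Col4a2 windows share 78 bases, read on opposite strands. RefSeq windows were found for 7 of the 10 genes (Col1a2, Col3a1, Col4a1, Col4a2, Col5a1, Col6a1 and Col6a2). CCAAT was present in 3 of these 7, namely the windows printed here, and in 37.4% of all 32851 RefSeq promoter windows of the same length. GGGCGG was present in 5 of 7 (the same 3, Col5a1 and Col6a2) against 35.7% of all windows. The only GGGCGG match of Col4a1 lies in the 78 bases shared with Col4a2, so this site counts for both genes. TATAAA was found in 1 of 7 (Col3a1) against 13.6%, and CAGGTG in 0 of 7 against 20.2%, with both strands searched for all 4 motifs. A match describes letters in the window and was not compared with any binding data.

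The 10 genes together made up a far larger part of the RNA of NIH/3T3 than of the other lines. Their summed level was 1069 CPM in NIH/3T3 (1050 to 1088; 12503 UMIs), 43.1 CPM in mESCs (39.5 to 46.9; 531 UMIs) and 13.4 CPM in N2a (11.8 to 15.2; 241 UMIs). NIH/3T3 was thus 24.8 times above mESCs (22.7 to 27.1) and 79.6 times above N2a (70.1 to 90.8), and mESCs were 3.21 times above N2a (2.75 to 3.75). At least 1 UMI of the 10 genes was present in 93.9% of NIH/3T3 cells (92.7% to 94.9%), 18.7% of mESCs (17.1% to 20.4%) and 7.45% of N2a cells (6.41% to 8.59%). After each cell had been thinned to 1000 UMIs, the shares were 62.7% (60.5% to 64.8%), 4.31% (3.48% to 5.25%) and 1.33% (0.909% to 1.89%), in the same order of lines.

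**Figure D1:**
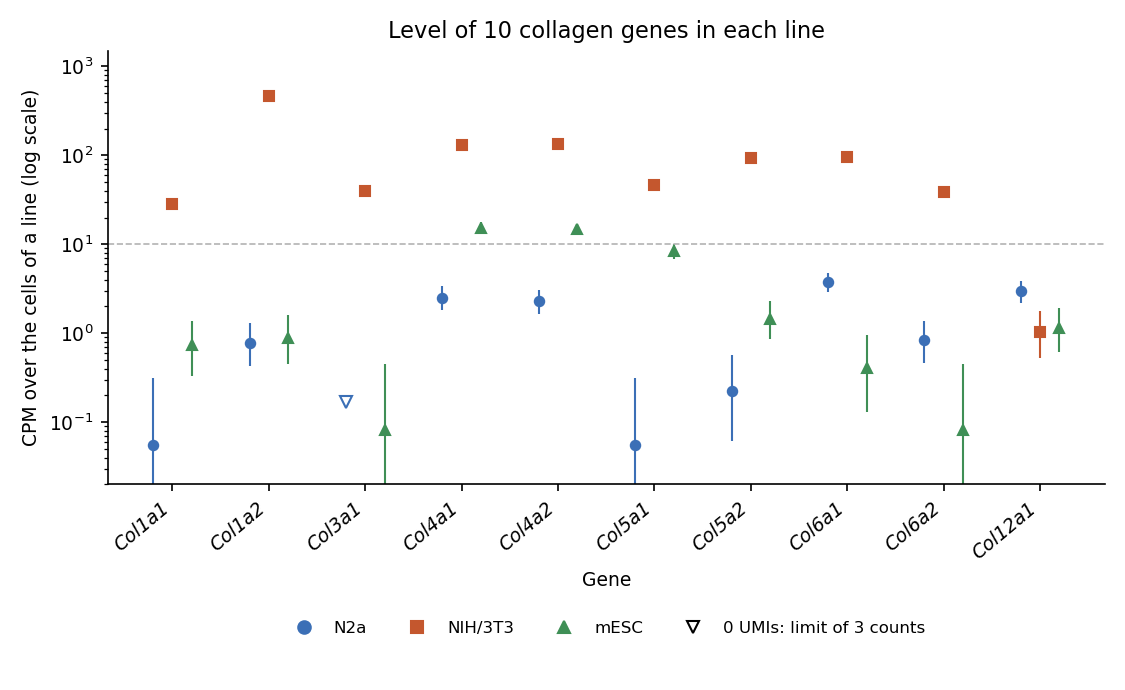
Level of each of the 10 collagen genes as CPM over the cells of N2a (circles), NIH/3T3 (squares) and mESCs (triangles) on a log axis, with 95% exact Poisson intervals as vertical bars, some of which run below the lower end of the axis; the open triangle marks Col3a1 in N2a, with 0 UMIs, at the limit that 3 counts allow, and the dashed line marks 10 CPM. The squares are highest for 9 genes, whereas Col12a1 is below 4 CPM in all lines.

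Gene by gene, a line was counted as past the fold when its CPM + 1 was at least 4 times that of the higher of both other lines, where only genes reaching 10 CPM in 1 line or more were tested. In NIH/3T3, 9 of the 10 genes were past it, from 5.04 times for Col5a1 to 243.9 times for Col1a2. The median log2 ratio was 4.22 over all 10 genes, with the untested Col12a1 included. Of all 11366 genes tested, 5.30% were past the fold in NIH/3T3, and the median log2 ratio was -0.39. Col4a1 and Col4a2 reached 10 CPM in mESCs too, whereas the other 7 passed the minimum through NIH/3T3 alone, so the count of 9 describes these genes and gives no support by itself. The 10th gene, Col12a1, stayed under 10 CPM in all 3 lines and was highest in N2a. None of the 10 (0 genes) was past the fold in N2a, where 5.78% of all tested genes were, or in mESCs, where 7.01% were. Between the lines with low levels, mESCs were at or above 4 times N2a for 3 genes, Col4a1, Col4a2 and Col5a1 (11.2% of all tested genes), and N2a at or above 4 times mESCs for 0 (10.4% of all tested genes).

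The fibrillar genes Col1a1, Col1a2, Col3a1, Col5a1 and Col5a2 summed to 669.4 CPM in NIH/3T3 (654.6 to 684.3), 11.5 CPM in mESCs (9.71 to 13.6) and 1.11 CPM in N2a (0.680 to 1.72). This was the group with the widest gap between NIH/3T3 and N2a, at 600.9 times (388.8 to 984.3), and it lay 58.1 times (49.2 to 69.1) above mESCs.

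Col1a2, which encodes the α2 chain of type I collagen (ENSMUSG00000029661, chromosome 6, 4504814 to 4541555, plus strand), was the gene with the most UMIs. It had 461 CPM in NIH/3T3 (448.4 to 473.1; 5388 UMIs), 0.893 CPM in mESCs (0.446 to 1.60; 11 UMIs) and 0.780 CPM in N2a (0.426 to 1.31; 14 UMIs). NIH/3T3 exceeded mESCs 516 times (288.1 to 1034) and N2a 590.7 times (351.8 to 1081), while mESCs and N2a did not differ beyond counting error (1.14 times, 0.470 to 2.72). Of NIH/3T3 cells, 79.3% held a Col1a2 UMI (35.1% when thinned), against 0.515% of mESCs and 0.603% of N2a cells (0.0936% and 0.0861% when thinned). A positive NIH/3T3 cell held 3.34 Col1a2 UMIs on average, with 47 in the highest cell.

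Col1a1, the partner chain gene of type I collagen (ENSMUSG00000001506, chromosome 11, 94827050 to 94843868, plus strand), had far fewer UMIs. Its level was 28.6 CPM in NIH/3T3 (25.6 to 31.8; 334 UMIs), 0.730 CPM in mESCs (0.334 to 1.39; 9 UMIs) and 0.0557 CPM in N2a (0.00141 to 0.310; 1 UMI). The ratio of NIH/3T3 to mESCs was 39.1 (20.3 to 86.2), and that to N2a was 513 (91.4 to 20309), an interval that rests on a single N2a UMI. Only 11.7% of NIH/3T3 cells held a Col1a1 UMI, and 2.31% after thinning. The share was 0.374% in mESCs and 0.0431% in N2a.

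Col3a1 encodes type III collagen, which is laid down with type I in soft tissues (ENSMUSG00000026043, chromosome 1, 45350698 to 45395840, plus strand). Its level was 39.9 CPM in NIH/3T3 (36.4 to 43.7; 467 UMIs) and 0.0812 CPM in mESCs (0.00205 to 0.452; 1 UMI). In N2a it had 0 UMIs, which allows up to 0.167 CPM and up to 0.129% of cells with a UMI, a limit on detection and not on cells that express the gene. NIH/3T3 was at least 238.9-fold higher than N2a, with 3 counts over the whole line taken as the floor, and 492 times above mESCs (87.9 to 19471). A Col3a1 UMI was found in 15.5% of NIH/3T3 cells (4.22% when thinned) and in 0.0468% of mESCs.

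Col5a1 and Col5a2 encode chains of type V collagen, a minor fibrillar collagen that helps to start fibrils. Col5a2 (ENSMUSG00000026042, chromosome 1, 45412554 to 45542442, minus strand) had 94.1 CPM in NIH/3T3 (88.6 to 99.8), 1.46 CPM in mESCs (0.866 to 2.31) and 0.223 CPM in N2a (0.0607 to 0.570). Col5a1 (ENSMUSG00000026837, chromosome 2, 27776397 to 27929526, plus strand) had 46.2 CPM in NIH/3T3 (42.4 to 50.2), 8.36 CPM in mESCs (6.82 to 10.1) and 0.0557 CPM in N2a (0.00141 to 0.310; 1 UMI). The order of both genes was NIH/3T3, mESCs, N2a, with intervals that did not overlap between neighbours. The distance of mESCs from NIH/3T3 differed between the chains, at 5.52 times for Col5a1 (4.47 to 6.89) and 64.4 times for Col5a2 (40.6 to 109.1). Of NIH/3T3 cells, 31.9% held a Col5a2 UMI and 21.2% a Col5a1 UMI (9.72% and 4.47% when thinned). In mESCs the shares were 0.796% and 4.54% (0.140% and 0.983% when thinned).

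The basement membrane genes Col4a1 and Col4a2, whose chains build the most widespread form of type IV collagen, held the most UMIs of the 10 genes in mESCs. Col4a1 (ENSMUSG00000031502, chromosome 8, 11248423 to 11362826, minus strand) had 131 CPM in NIH/3T3 (124.5 to 137.7), 15.3 CPM in mESCs (13.2 to 17.6) and 2.51 CPM in N2a (1.83 to 3.35). Col4a2 (ENSMUSG00000031503, chromosome 8, 11362471 to 11499287, plus strand) had 133.7 CPM (127.2 to 140.5), 14.7 CPM (12.6 to 17.0) and 2.28 CPM (1.64 to 3.10) in the same lines. Both genes therefore had the order NIH/3T3, mESCs, N2a without overlap of intervals, and within each line the intervals of the 2 genes overlapped. NIH/3T3 was 8.58 times (7.37 to 10.0) and 9.10 times (7.80 to 10.7) above mESCs, and mESCs were 6.09 times (4.38 to 8.63) and 6.43 times (4.56 to 9.26) above N2a. A Col4a1 UMI was present in 45.9% of NIH/3T3 cells, 7.49% of mESCs and 1.33% of N2a cells, and a Col4a2 UMI in 46.3%, 6.97% and 1.25%. After thinning, the Col4a1 shares were 11.2%, 1.54% and 0.344%. The 45 Col4a1 UMIs of N2a came from 31 cells and reached 6 in a single cell. The gene models overlap by 356 bases on opposite strands, and whether counting used the strand is not given in the sources used here.

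Col6a1 and Col6a2 encode chains of type VI collagen. Col6a1 (ENSMUSG00000001119, chromosome 10, 76543440 to 76562283, minus strand) had 95.0 CPM in NIH/3T3 (89.5 to 100.7), 3.73 CPM in N2a (2.89 to 4.74) and 0.406 CPM in mESCs (0.132 to 0.947). Col6a2 (ENSMUSG00000020241, chromosome 10, 76429660 to 76459549, minus strand) had 38.8 CPM in NIH/3T3 (35.3 to 42.5), 0.835 CPM in N2a (0.468 to 1.38) and 0.0812 CPM in mESCs (0.00205 to 0.452; 1 UMI). Here N2a stood above mESCs, by 9.20 times for Col6a1 (3.75 to 29.2) and 10.3 times for Col6a2 (1.58 to 433.4), the reverse of the order of Col4a1, Col4a2, Col5a1 and Col5a2. NIH/3T3 was 25.5 times (19.9 to 33.1) and 46.5 times (27.9 to 83.7) above N2a. A Col6a1 UMI was found in 36.7% of NIH/3T3 cells, 2.75% of N2a cells and 0.234% of mESCs (9.33%, 0.258% and 0.0468% when thinned). For Col6a2 the shares were 18.6%, 0.430% and 0.0468%, or 3.34%, 0.129% and 0% when thinned, where 0 of 2137 mESCs allows up to 0.140% of cells with a UMI at that depth.

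Col12a1, which encodes a fibril-associated collagen that binds the surface of type I fibrils (ENSMUSG00000032332, chromosome 9, 79506268 to 79626135, minus strand), did not follow the others. Its level was 2.95 CPM in N2a (2.21 to 3.86; 53 UMIs), 1.14 CPM in mESCs (0.621 to 1.91; 14 UMIs) and 1.03 CPM in NIH/3T3 (0.530 to 1.79; 12 UMIs). N2a was 2.88 times above NIH/3T3 (1.52 to 5.92) and 2.60 times above mESCs (1.42 to 5.07), while mESCs and NIH/3T3 did not differ beyond counting error (1.11 times, 0.475 to 2.62). The gene was detected in 45 N2a cells (1.94%), 14 mESCs (0.655%) and 11 NIH/3T3 cells (0.540%), and after thinning in 0.344%, 0.0468% and 0.0491%.

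The low levels outside NIH/3T3 were set beside Prrx1 and Cav1, which were picked afterwards as the fibroblast markers with the lowest relative level in the other lines. Prrx1, a mesenchymal transcription factor with 622.4 CPM in NIH/3T3, had 0.0805% of that level in N2a (0.0368% to 0.153%) and 0.130% in mESCs (0.0625% to 0.240%). Cav1, a coat protein of caveolae with 233.4 CPM in NIH/3T3, had 0.191% (0.0823% to 0.377%) and 0.243% (0.0978% to 0.502%). The other 4 fibroblast markers had 0.931% (Thy1) to 34.4% (Pdgfrb) of the NIH/3T3 level in N2a and 2.87% (Pdgfra) to 33.4% (Pdgfrb) in mESCs. In N2a, Col1a1, Col1a2, Col3a1, Col5a1 and Col5a2 were at 0 to 0.237% of their NIH/3T3 level, with intervals that overlapped that of Cav1. Col4a1, Col4a2, Col6a1 and Col6a2 were at 1.91%, 1.71%, 3.93% and 2.15% in N2a, with all lower bounds above 1.19%. In mESCs, Col1a2, Col3a1, Col6a1 and Col6a2 were at 0.194% to 0.427%, again with intervals overlapping that of Cav1, whereas Col5a2 was at 1.55%, Col1a1 at 2.56%, Col4a2 at 10.99%, Col4a1 at 11.7% and Col5a1 at 18.1%. The source of these lowest levels was not tested. In barcodes with fewer than 1000 UMIs, the summed level of the 10 genes was 858 CPM in the NIH/3T3 matrix, 51.7 CPM in the mESC matrix and 15.6 CPM in the N2a matrix.

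The make-up of the summed UMIs of the 10 genes thus differed between the lines. In NIH/3T3, Col1a2 held 43.1% of the UMIs of the 10 genes, Col4a2 12.5% and Col4a1 12.2%. In mESCs, Col4a1 held 35.4%, Col4a2 34.1% and Col5a1 19.4%. In N2a, Col6a1 held 27.8%, Col12a1 21.99%, Col4a1 18.7% and Col4a2 17.0%. Levels were also divided by exon length, with the exons of all annotated transcripts of a gene merged. As CPM per kilobase of exon, Col1a2 led in NIH/3T3 with 36.4, before Col4a2 with 18.6, Col4a1 with 17.5 and Col6a1 with 16.2. Lower values were found for Col5a2 (8.42), Col5a1 (5.29), Col1a1 (4.35), Col3a1 (3.88) and Col6a2 (3.53), and Col12a1 was at 0.0670 CPM per kilobase. Whether UMI counts scale with transcript length in this protocol was not tested, so the order of genes on this scale is a description.

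Chain genes of 1 collagen type were also compared as a share of the UMIs of their pair, which sets lines against each other without a change of gene. Col4a1 held 49.5% of the type IV pair in NIH/3T3 (47.7% to 51.3%), 50.9% in mESCs (45.7% to 56.2%) and 52.3% in N2a (41.3% to 63.2%), so the share did not differ between lines beyond counting error. In the type V pair, the share of Col5a1 was 85.1% for mESCs (77.5% to 90.9%) but 32.9% for NIH/3T3 (30.6% to 35.2%), so the excess lay with Col5a1 UMIs in mESCs and with Col5a2 UMIs in NIH/3T3. Col1a1 held 5.84% of the type I pair in NIH/3T3 (5.24% to 6.48%) and 9 of 20 UMIs in mESCs (45.0%, 23.1% to 68.5%). Col6a1 held 71.0% of the type VI pair in NIH/3T3 (68.7% to 73.2%) and 81.7% in N2a (71.6% to 89.4%), and these intervals overlapped.

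**Figure D2:**
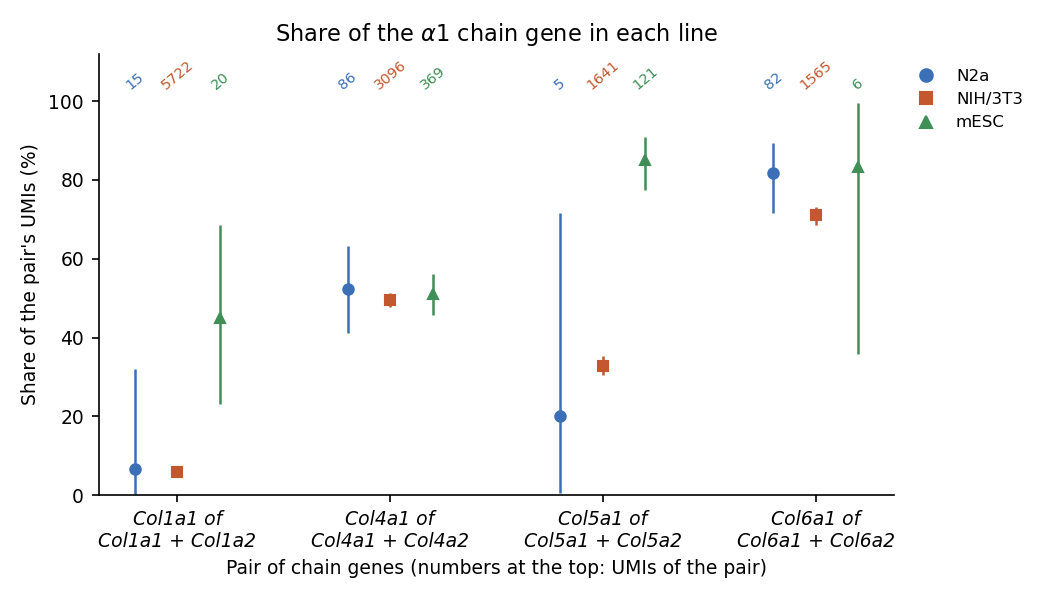
Share of the α1 chain gene in the summed UMIs of 4 pairs of chain genes in N2a (circles), NIH/3T3 (squares) and mESCs (triangles), with 95% exact binomial intervals and the UMIs of each pair and line at the top. The type IV pair lies near 50% in all lines, between 49.5% and 52.3%, while the type V pair lies at 32.9% in NIH/3T3 and 85.1% in mESCs.

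Within NIH/3T3, the levels were compared over the 32 BC1 sequences of the line, which are wells of 1 culture and not replicates. Col1a2 ranged from 347.5 to 579.7 CPM with a median of 464.2, and the sum of the 10 genes from 905.1 to 1288 CPM with a median of 1063. Col4a1 ranged from 86.6 to 168.6 CPM and Col4a2 from 101.6 to 183.8 CPM. The spread was widest in relation to the median for the less abundant genes, with 8.46 to 75.2 CPM for Col1a1 (median 28.3) and 4.34 to 93.9 CPM for Col3a1 (median 38.1). Every BC1 sequence held UMIs of all members except Col12a1, which was without UMIs in 23 of 32. The highest BC1 sequence of N2a had a summed level of 35.3 CPM and that of mESCs 73.8 CPM, both below the lowest of NIH/3T3.

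**Figure D3:**
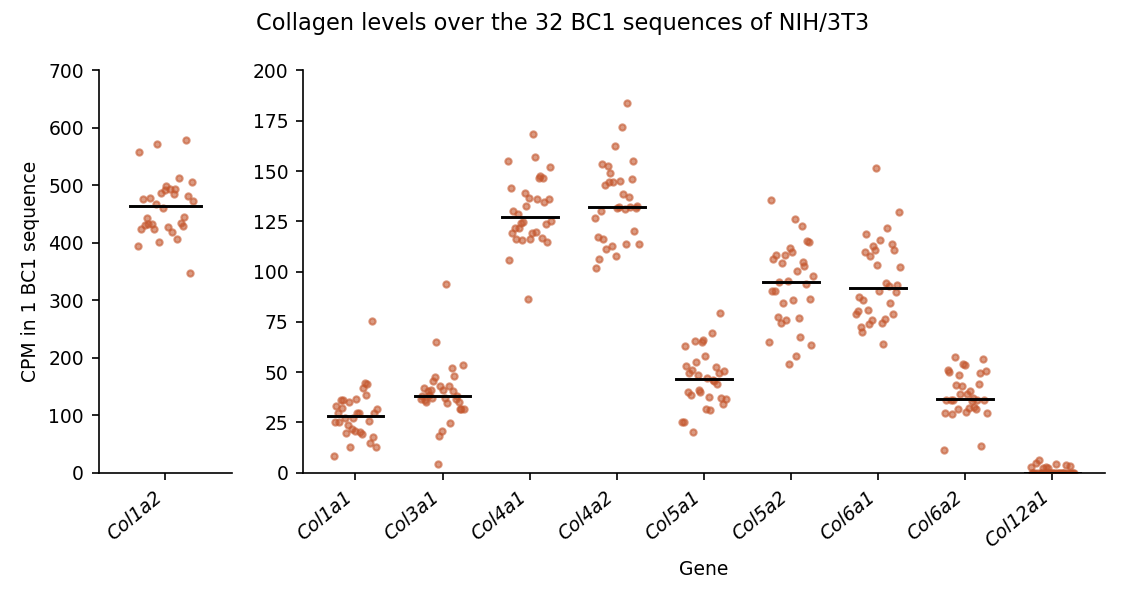
CPM of each collagen gene in the 32 BC1 sequences of NIH/3T3 (1 point each, black bars at the medians), with Col1a2 on an axis of its own; both axes are linear and start at 0. Col1a2 lies between 347.5 and 579.7 CPM, whereas Col12a1 is at 0 in 23 of the 32.

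Single NIH/3T3 cells were compared after thinning to 3000 UMIs, which 1500 cells reached. The Fano factor, the variance of a gene's UMIs divided by their mean, is near 1 where cells differ by sampling alone, and its median over 7483 genes with at least 20 CPM was 1.06, with a 90th percentile of 1.18. It was above that percentile for Col1a2 (1.55), Col5a2 (1.32), Col3a1 (1.31) and Col1a1 (1.24). For Col4a1, Col4a2, Col5a1, Col6a1 and Col6a2 it was between 0.988 and 1.09. The most variable members were therefore all fibrillar genes. Col3a1 UMIs were found in 141 of the 1500 thinned cells and Col1a1 UMIs in 101, so each of these genes was seen in fewer than 10% of the cells. Without thinning, an NIH/3T3 cell showed a median of 3 of the 10 genes, 438 cells (21.5%) showed 5 or more, and 3 cells showed 9. Pearson's r between members over the 1500 cells, on log values of thinned counts, ranged from -0.025 to 0.124 over 45 pairs with a median of 0.029. In counts this sparse such values are weak and are given as a description.

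Genes were also ranked by Pearson's r with the sum of the 10 genes over the same 1500 cells, among 4693 other genes with at least 50 CPM. The 5 highest were Timp3, an inhibitor of matrix metalloproteinases (0.23), the type IV chain gene Col4a6 (0.21), Ahnak, which encodes a large scaffold protein (0.20), the type IV chain gene Col4a5 (0.18) and the histone deacetylase gene Hdac9 (0.18). The lowest was Dcn, which encodes decorin, a proteoglycan that coats collagen fibrils (-0.18). All points share 1 library, and the values are descriptions.

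Because Dcn stood at the low end, NIH/3T3 cells were split by its UMIs, a choice made after these values had been seen. Of the 1500 thinned cells, 231 (15.4%) held 2 or more Dcn UMIs and 1044 (69.6%) held 0, while 225 with exactly 1 were left out. Levels in these groups were computed from all UMIs of the cells. Both groups came from all 32 BC1 sequences, with median depths of 6478 and 5859 UMIs before thinning. The sum of the 10 genes was 867.5 CPM (824.9 to 911.7) in cells with Dcn and 1138 CPM (1114 to 1163) in cells without. Col1a1 ran opposite to the sum, with 62.6 CPM (51.5 to 75.3) in cells with Dcn against 19.0 CPM (15.9 to 22.5) in cells without, a ratio of 3.29 (2.54 to 4.26). Col5a2 was at 30.2 CPM (22.7 to 39.4) against 118 CPM (110.2 to 126.3), a ratio of 0.256 (0.190 to 0.337). Col6a1 had a ratio of 0.448 (0.355 to 0.559), Col6a2 of 0.575 (0.411 to 0.788) and Col3a1 of 0.625 (0.454 to 0.844). Col4a1, at 0.708 (0.602 to 0.829), Col4a2, at 0.786 (0.672 to 0.917), and Col1a2, at 0.899 (0.829 to 0.973), differed less, and the interval of Col5a1, at 0.771 (0.582 to 1.01), included 1. With 1 Dcn UMI or more as the limit, which brought 456 cells into the first group, the ratios were 2.58 for Col1a1, 0.369 for Col5a2 and 0.584 for Col6a1. Since Dcn was picked for its low correlation with the members' sum in these same cells, the lower sum follows from the choice. Among 7482 genes with at least 20 CPM, the interval lay above 1 for 23.5% and below 1 for 24.2%, against 1 and 7 of the 9 members tested, and nothing particular to the members is read from this.

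Outside the 10 genes, the same split gave ratios of 3.34 (2.65 to 4.20) for Col27a1, a minor fibrillar collagen gene, 0.404 (0.339 to 0.479) for Col6a3, 0.482 (0.439 to 0.528) for Col4a5, 0.502 (0.458 to 0.550) for Col4a6 and 0.139 (0.111 to 0.170) for Timp3. Col17a1, at 4.70 CPM in NIH/3T3, was at 6.67 (3.10 to 14.95). Of the other matrix genes computed, Sparc was at 0.560, Serpinh1 at 0.722 and Bgn at 1.44, and the intervals of Lox, Fn1 and Lamb1 included 1. Timp3, Col4a6 and Col4a5 were among the genes most like the members' sum, where Dcn was lowest. Their low ratios are therefore not independent of the choice of Dcn. A block of 7 genes on chromosome 14 (Abcc4, Dnajc3, Dzip1, Gpc6, Gpr180, Tgds and Uggt2), picked with earlier results of these data known, had 15.6 CPM (10.4 to 22.6) in cells with Dcn and 224.3 CPM (213.5 to 235.6) in cells without. These values moved with the limit: with 1 Dcn UMI or more, the block was at 46.1 CPM (39.2 to 53.9), and the ratios were 0.280 for Timp3, 0.510 for Col6a3, 0.554 for Col4a5, 0.564 for Col4a6 and 2.76 for Col27a1. The part of that block in the collagen values was not tested. In a separate split of NIH/3T3 cells, 414 had the highest share of 14 G2/M genes (at least 15 of 3000 UMIs). These and the other 1086 cells had sums of the 10 genes at 1057 CPM (1022 to 1094) and 1071 CPM (1048 to 1095), a ratio of 0.987 (0.948 to 1.03). Between these groups Col5a2 was at a ratio of 1.25 (1.09 to 1.43), Col6a2 at 0.786 (0.624 to 0.985) and Col4a2 at 0.863 (0.766 to 0.972), and the intervals of the other members included 1. The share of all genes whose interval left out 1 in this split was not computed, so nothing is read from these ratios.

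**Figure D4:**
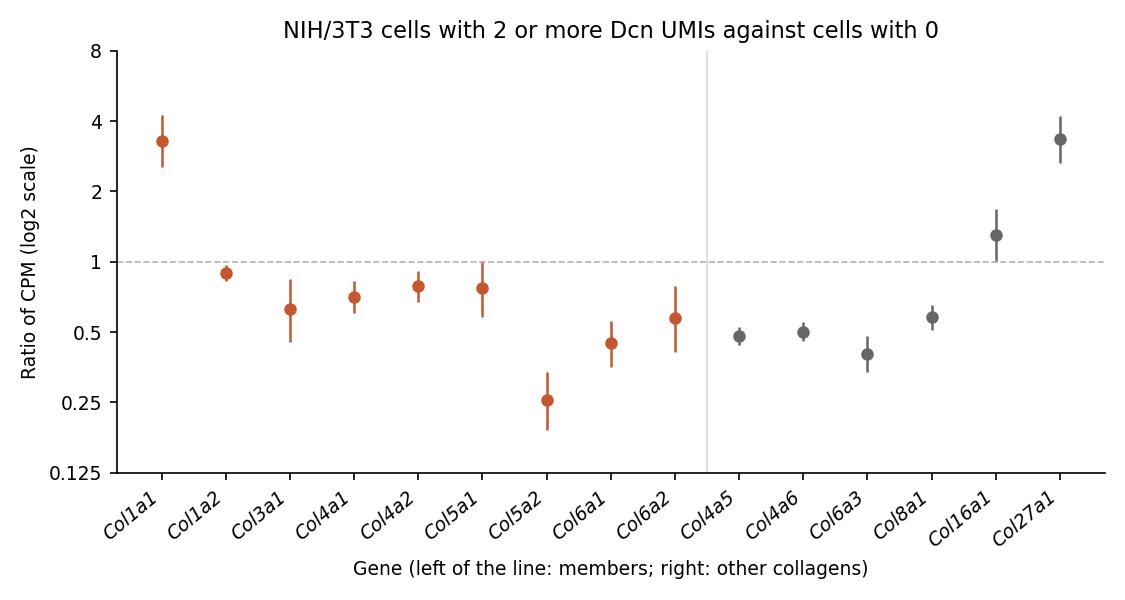
Ratio of CPM in NIH/3T3 cells with 2 or more Dcn UMIs (231 cells) to that in cells with 0 (1044 cells), grouped after thinning to 3000 UMIs with levels from all UMIs of the cells, on a log2 axis with 95% exact binomial intervals, for 9 members (left) and 6 other collagen genes (right). Col1a1, at 3.29, and Col27a1, at 3.34, lie above 1 with their intervals, Col5a2 is lowest at 0.256, and Col12a1 is not drawn because it had 2 and 7 UMIs.

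The 10 genes were 40.6% of all collagen UMIs in NIH/3T3 (12503 of 30785), 20.1% in mESCs (531 of 2645) and 3.29% in N2a (241 of 7316), so most collagen UMIs of N2a came from genes outside the 10. Summed over all 44 collagen genes, NIH/3T3 was 6.46 times (6.30 to 6.63) above N2a and 12.3 times (11.8 to 12.8) above mESCs. N2a was then 1.90 times (1.82 to 1.99) above mESCs, the reverse of the order for the 10 genes. A UMI of the 44 genes was present in 98.2% of NIH/3T3, 79.4% of N2a and 60.2% of mESC cells (87.6%, 31.4% and 18.8% when thinned). Among the 34 other collagen genes, 11 had at least 10 CPM in 1 line or more, of which 6 were past the 4-fold limit in NIH/3T3, 1 in N2a and 2 in mESCs. The shares of all tested genes were 5.30%, 5.78% and 7.01%. Of the genes past the limit, only Col18a1 reached 10 CPM in a further line, so the counts give no support by themselves. Col11a1 (6.29 times in mESCs), Col23a1 (4.43 times) and Col11a2 (4.12 times, both in N2a) were untested. They also exceeded 4 times on the CPM + 1 scale. In NIH/3T3 the genes past the limit were Col4a5 (510.8 CPM), Col4a6 (500.9 CPM), Col8a1 (261.2 CPM), Col6a3 (173.2 CPM), Col16a1 (37.5 CPM) and Col27a1 (36.7 CPM). Col4a5 and Col4a6 lie 1281 bases apart on opposite strands of the X chromosome, an arrangement like that of Col4a1 and Col4a2, and Col4a5 held 50.5% of the UMIs of that pair (49.6% to 51.4%). In CPM per kilobase of exon they were at 54.7 and 62.8, and Col1a2 at 36.4. Their genes span 213.9 and 308.7 kilobases with introns, and Col1a2 spans 36.7. Whether reads in introns were counted is not given in the sources used here, so this order is a description. In N2a, Col6a5, a further type VI chain gene, had 285.7 CPM (277.9 to 293.6) against 2.27 CPM in mESCs and 0.769 CPM in NIH/3T3. Col6a3, whose chain completes the trimer of Col6a1 and Col6a2, had 173.2 CPM in NIH/3T3 and 0.446 CPM in N2a. Col13a1 had 33.2 CPM in N2a and 17.9 CPM in mESCs, and Col22a1 had 12.0 CPM in N2a, both under the 4-fold limit. In mESCs, Col18a1, a basement membrane collagen gene, had 88.2 CPM (83.1 to 93.6) against 14.6 CPM in NIH/3T3, and Col9a2 had 22.6 CPM against 1.67 CPM in N2a.

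**Figure D5:**
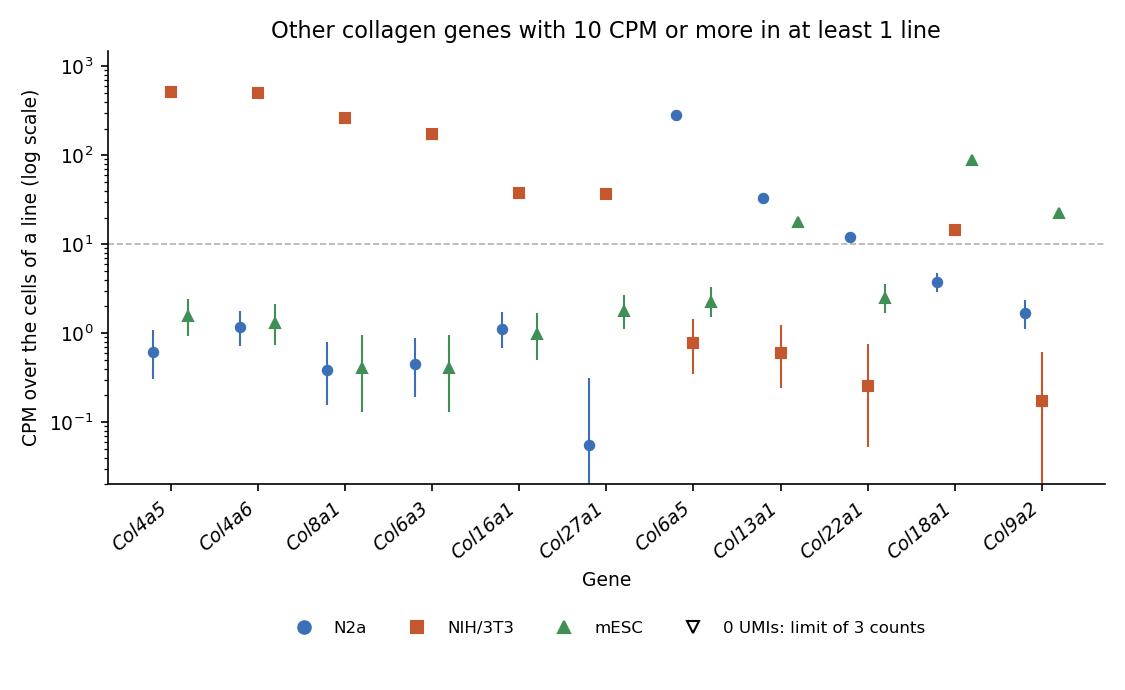
CPM over the cells of each line, on a log axis with 95% exact Poisson intervals, for the 11 collagen genes outside the 10 that had at least 10 CPM (dashed line) in 1 line or more, ordered by the line with the highest level; intervals running below the axis are cut at its lower end. Col4a5 (510.8 CPM) and Col4a6 (500.9 CPM) lead in NIH/3T3, Col6a5 (285.7 CPM) in N2a and Col18a1 (88.2 CPM) in mESCs.

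Genes that act on collagen were examined as lists, in which only genes reaching 10 CPM in 1 line or more were tested against the 4-fold limit, as above. The shares of all tested genes past that limit were 5.30% for NIH/3T3, 7.01% for mESCs and 5.78% for N2a. Of the genes past it in these lists, only P4ha2, Serpinh1, Pcolce, Timp2 and Lamb1 reached 10 CPM in a further line. The others entered the test through the line where they were high, so the counts give no support by themselves. Of 14 genes for prolyl and lysyl hydroxylation and glycosylation, 12 were tested, of which 0 were past the limit in NIH/3T3 and 2 in N2a, namely P4ha2, a prolyl hydroxylase subunit (63.7 CPM, against 12.7 CPM in mESCs and 8.12 CPM in NIH/3T3), and Colgalt2, a collagen galactosyltransferase (23.5 CPM). Among 8 chaperone and export genes, all tested, only Serpinh1, which encodes the collagen chaperone HSP47, was past the limit, with 235.5 CPM in NIH/3T3, 36.6 CPM in mESCs and 1.56 CPM in N2a. Its order of lines was that of Col4a1, Col4a2, Col5a1 and Col5a2. Of 12 genes for propeptide cleavage and cross-linking, 10 were tested and 6 were past the limit in NIH/3T3, among them Pcolce, an enhancer of procollagen cleavage (187.3 CPM), the lysyl oxidase genes Lox (184.9 CPM) and Loxl1 (52.8 CPM), and the propeptidase gene Adamts14 (42.8 CPM). Loxl2, a further lysyl oxidase gene, was past it in N2a (29.3 CPM), and the propeptidase gene Tll1 (31.1 CPM) and Pcolce2, a relative of Pcolce (21.7 CPM), in mESCs.

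In the lists with many genes under 10 CPM, the untested Itga2 (5.63 times in N2a), Mmp2 (4.44 times in NIH/3T3), Mmp9 (4.56 times in NIH/3T3), Lum (5.48 times in NIH/3T3), Mmp16 (6.53 times in mESCs) and Lama2 (4.74 times in mESCs) also exceeded 4 times on the CPM + 1 scale, and they are named after their values were seen. Of 9 collagen receptor genes, 5 were tested and 0 of these were past the limit in any line, and the gene with the most UMIs, the integrin subunit gene Itgb1, had 641.9 CPM in NIH/3T3, 620.5 CPM in N2a and 201.3 CPM in mESCs. Of 10 genes for collagenases, gelatinases and their inhibitors, 4 were tested and 3 were past it in NIH/3T3, namely the inhibitor genes Timp2 (418.5 CPM) and Timp3 (291.6 CPM) and the membrane-bound collagenase gene Mmp14 (81.3 CPM). Of 9 fibril-associated proteoglycan and glycoprotein genes, 4 were tested and 2 were past it in NIH/3T3, Dcn (220.1 CPM) and Bgn, which encodes biglycan (32.7 CPM). Among 11 genes for partners of type IV collagen in basement membranes, 9 were tested and 3 were past it in mESCs, the nidogen gene Nid2 (194.5 CPM) and the laminin genes Lama1 (63.1 CPM) and Lama5 (38.2 CPM), whereas Lamb1 was past it in NIH/3T3 (247.6 CPM) and Lama4 in N2a (31.5 CPM). Without the limit, 9 of the 11 had their highest level in mESCs. On the CPM + 1 scale these ranged from 1.16 times the higher other line for Hspg2 to 152.9 times for Nid2. The share of all genes highest in mESCs was not computed, so nothing is read from this count.

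Some members are neighbours in the genome. Col3a1 and Col5a2 lie 16713 bases apart on opposite strands of chromosome 1, and both were highest in NIH/3T3 and lower in cells with Dcn, with ratios of 0.625 and 0.256. Most members shared both traits, so neither is particular to this pair. Col6a2 and Col6a1 lie 83890 bases apart on the same strand of chromosome 10, and both had the order NIH/3T3, N2a, mESCs. Several antisense noncoding genes overlap the members, and the 5 of them listed in the matrices had 0 to 6 UMIs over all barcodes of NIH/3T3.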

How the data were processed

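N2a, NIH/3T3 and mESCs were barcoded in a single CapSeq library, and reads were assigned to lines by BC1. The authors trimmed the template switching oligo, aligned reads to GRCm39 with GENCODE M30 annotation, and counted them with STARsolo. The deposited values are UMI counts, neither normalized nor filtered for cells, in 3 matrices of 1 line each and 1 pooled matrix, which served only as an alternative. The STARsolo feature mode and strand setting are not given in the sources used here. Positions of genes were taken from GENCODE M39 (GRCm39) and promoter windows from a RefSeq table built on GRCm38.p6.

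Total depth was 20662884 UMIs in the N2a matrix, 13505027 in that of NIH/3T3 and 13875356 in that of mESCs. Barcodes with fewer than 1000 UMIs were removed, as were those above 20% mitochondrial UMIs (7, 15 and 18 barcodes). No doublet caller was run, and the 5% of cells with the most UMIs were left out as an alternative. UMIs were summed per line and scaled to CPM, and the 4-fold limit used a pseudocount of 1 CPM, whereas ratios printed with an interval used none. Where a count was 0, the limit was set at 3 counts. Cells were thinned without replacement. Since each line was 1 sample, no replicate error exists and no p-value is given. The members and lists were chosen with earlier results of these data known. Genes were named by rule: all members, other collagens with at least 10 CPM in 1 line or more, genes of each list past the 4-fold limit (at most 4 per line and list, by level) or else the gene with the most UMIs, and the 5 genes most like the summed members. Dcn as the least like gene, the Dcn split, Prrx1, Cav1 and the chromosome 14 block were added afterwards. The 4-fold rule and the Poisson intervals were tested on simulated Poisson sums. Such sums follow the model of the intervals, so this check cannot show how the intervals fare where cells differ beyond counting error. The other steps were not tested on simulated data. Scripts ran under Python 3.11.15 with matplotlib 3.10.9, pandas 2.3.3, scipy 1.17.1 and numpy 2.4.6.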

Additional observations from a re-analysis of the deposited data

How the results depend on the processing

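Of the 10 genes, 9 were past the limit in NIH/3T3 under all 12 alternatives run, 1 of which used a lower fold limit. That alternative and the one without a minimum CPM only relaxed the rule. Col12a1, at 0.513 times the higher other line on the CPM + 1 scale, stayed out of both, so they could not change the count. Of 270 levels of single genes under 9 alternatives, 261 stayed inside the interval of the reported value and 9 moved outside, all in NIH/3T3 and all upward when mitochondrial and ribosomal protein genes were left out, by at most 1.13 times. That alternative also put the summed level at 48.0 CPM in mESCs and 1211 CPM in NIH/3T3, and the use of all barcodes put it at 1042 CPM in NIH/3T3. The share of cells with a collagen UMI followed the cells and depth used. It was 97.2% in NIH/3T3 and 20.6% in mESCs with at least 2000 UMIs, 90.7% in NIH/3T3 with at least 500 UMIs, 8.70% in N2a and 96.0% in NIH/3T3 with cells called by the STARsolo rule, and 17.0% in mESCs without the 5% of cells with the most UMIs. Over all barcodes it was 1.97% in NIH/3T3, 0.329% in mESCs and 0.116% in N2a. Thinned to 1000 UMIs, it was 62.7%, 4.31% and 1.33%, and thinned to 2000 UMIs, 85.6%, 7.36% and 2.27%, in the same order. The order of the lines was the same under each of these. In the Dcn split, 1 Dcn UMI or more gave 0.369 for Col5a2, 0.584 for Col6a1 and, outside the members, 0.280 for Timp3, while thinning to 2000 UMIs and another random draw kept the ratios of Col1a1, Col5a2 and Col6a1 inside their intervals; these 3 alternatives were chosen after seeing the data. No paired analysis was possible because each line was 1 sample and no test was made. Depth limits the low levels: Col1a1 and Col5a1 rest on 1 UMI each in N2a, and Col3a1 and Col6a2 on 1 UMI each in mESCs.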
